A study of Mus musculus with 5 samples.

Results

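S100 proteins are small calcium-binding proteins, and the 8 members described here (S100a1, S100a4, S100a6, S100a10, S100a11, S100a13, S100a14 and S100a16) are those chosen by name as the S100 genes of carcinoma cells, out of 23771 genes in the deposited gene table. They were compared between the cancer cells of 2 single-cell RNA sequencing libraries of mouse lung. Each library was 1 pool of dissociated lungs from 3 female BALB/c mice, aged 11 weeks at collection. From 6 weeks of age the mice had received 200 µL of tumor-secreted factors (TSF, medium conditioned by resected mammary tumors) or of control medium (CM, the same medium kept without tumor) intravenously, 3 times per week for 3 weeks. All mice were then given 25000 4T1 CD90.1 cells, a mouse mammary carcinoma line that carries CD90.1 (a Thy1 variant) as a reporter, and lungs were taken 16 days later. Mean levels are given as CP10k, the number of UMIs (unique molecules) of a gene per 10000 UMIs of a cell, averaged over the 29 cancer cells of the CM library and the 139 cancer cells of the TSF library. With 1 library per group there was no replicate check and no test, so every difference given is between these libraries.

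Each S100 protein has a pair of EF-hand calcium-binding loops and usually acts as a dimer that binds a target protein when calcium rises. S100a10 differs, since it has lost calcium binding and is held in a tetramer with annexin A2 at the membrane. Several S100 proteins also leave the cell and act on surface receptors such as Ager. Tumor cells of epithelial origin commonly express several S100 genes, and S100a4 was first described in metastatic mouse mammary carcinoma cells.

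Most of the 8 genes lie in 1 stretch of chromosome 3. On GRCm38, S100a1 (chr3:90511034-90514392, minus strand), S100a13 (chr3:90514435-90524581), S100a14 (chr3:90526856-90528837), S100a16 (chr3:90537254-90543151), S100a4 (chr3:90603771-90606045) and S100a6 (chr3:90612882-90624181) fall within 113 kb, with S100a2, S100a3 and S100a5 between them. S100a11 (chr3:93520488-93526287) and S100a10 (chr3:93555080-93564643) form a second group that spans 44.2 kb. S100a1 is the only minus-strand gene of the 8.

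Sequences upstream of 4 genes are shown because their levels, below, differed most between the libraries or, for S100a1 and S100a13, because the pair starts head to head. The stretch between S100a1 and S100a13 is 42 bases without an annotated exon (chr3:90514393-90514434, plus strand). The sequences for S100a4 (chr3:90603670-90603769, plus strand) and S100a6 (chr3:90612644-90612881, plus strand) end just before the annotated gene. All are RefSeq promoter sequences on GRCm38.p6, printed 5′ to 3′, and capitals mark matches to the motifs named in the next paragraph.
S100a1 and S100a13, shared upstream stretch: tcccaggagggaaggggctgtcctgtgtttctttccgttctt
S100a4: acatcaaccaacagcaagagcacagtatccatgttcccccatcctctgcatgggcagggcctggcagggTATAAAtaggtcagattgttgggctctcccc
S100a6: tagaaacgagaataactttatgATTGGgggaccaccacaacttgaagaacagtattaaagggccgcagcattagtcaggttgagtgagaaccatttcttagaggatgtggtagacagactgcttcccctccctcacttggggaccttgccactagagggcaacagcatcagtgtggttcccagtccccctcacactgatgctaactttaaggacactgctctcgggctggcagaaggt

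The motifs searched on both strands were the TATA box TATAAA, the CCAAT box CCAAT, the GC box GGGCGG and the AP-1 site TGANTCA, and no match overlapped another. The S100a4 window held TATAAA 31 bases before the RefSeq start, a motif present in 13.6% of all 32851 RefSeq promoter windows of 300 bases. S100a6 held only CCAAT, on the reverse strand (ATTGG), near the far end of the window, and 37.4% of all windows held it. S100a11 held 3 GC boxes and 2 AP-1 sites, against 35.7% and 7.81% of all windows with at least 1. A window of S100a16 also held 1 GC box and 1 AP-1 site. The stretch shared by S100a1 and S100a13 held none of these letters. Windows were given for 6 of the 8 genes. These matches describe the letters only, since no binding was measured here.

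The members split into 4 abundant genes and 4 low ones, in both libraries (plot of S100 levels by library). UMIs of these libraries count transcript starts and do not scale with transcript length, so CP10k levels of different genes were set side by side. S100a6 had the highest level, followed by S100a10, S100a11 and S100a4, and the lowest share of cells with a UMI among them was 91.4% (S100a4 in TSF). Below them came S100a1, S100a13 and S100a16, between 0.318 and 1.05 CP10k, and S100a14 was near 0. Together the 8 genes held 1.33% of all UMIs per cell in the CM library and 1.78% in the TSF library, on the mean CP10k scale. Without S100a6 the sum was 48.0 CP10k in CM and 46.6 CP10k in TSF, so the higher sum in TSF lay in S100a6.

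**Figure D1:**
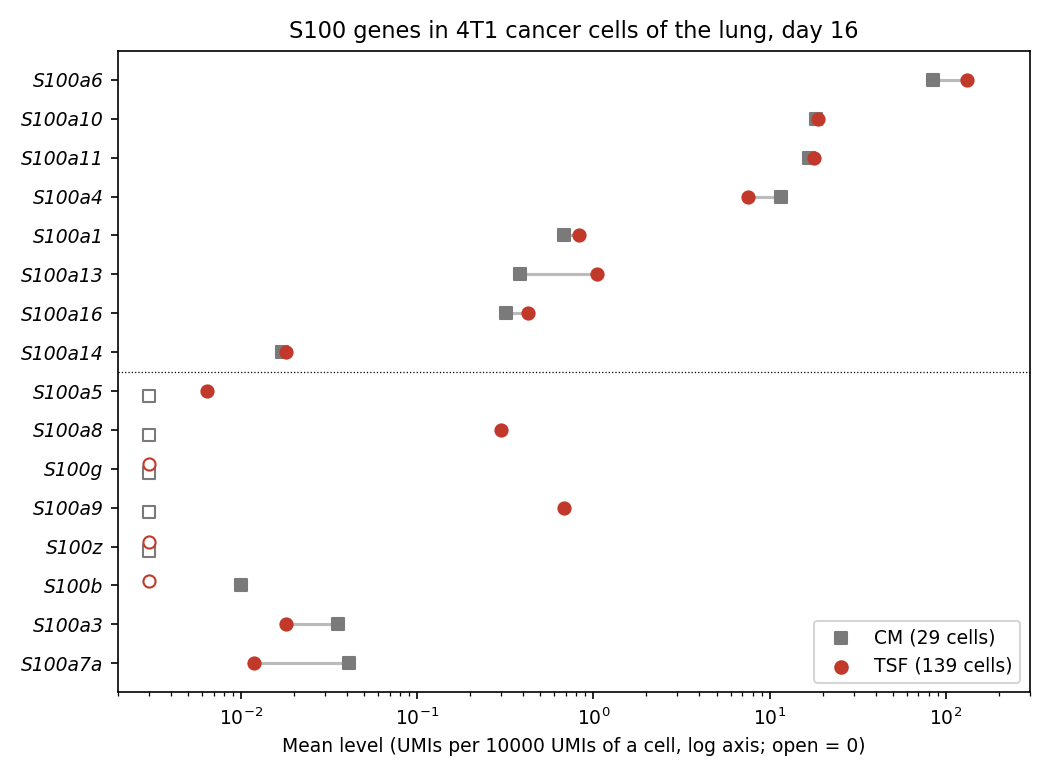
Mean level of S100 genes in cancer cells at day 16, in CP10k on a log axis, for the CM library (grey squares) and the TSF library (red circles), 1 library each. Open symbols at the left edge stand for a level of 0, and the dotted line divides the 8 genes described (above) from other S100 genes (below). S100a6 is highest at 84.8 CP10k in CM and 131 CP10k in TSF, and the widest gap among the lower members is that of S100a13.

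A gene was counted as past the limit where the ratio of mean CP10k plus 1 was at least 1.5 in either direction, among the 10201 genes detected (1 UMI or more) in 10% or more of the cells of CM, of TSF or of both. Of the 8 members 7 passed that filter, and S100a14 did not. S100a6 was the 1 member past the limit in the higher direction, where 0.755% of all genes lay (77 of 10201). No member was past it in the lower direction, where 1.95% of all genes lay. The median log2 ratio of TSF over CM was 0.11 for the 7 members and -0.03 for all genes tested. Of the members 6 were above 0 and 1 below, beside 4106 above and 6095 below among the 10201 genes tested. The added 1 holds low genes near a ratio of 1. With 0.1 added in its place, S100a6 and S100a13 were past the limit in the higher direction and S100a4 in the lower one, against 7.33% and 17.3% of all genes.

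**Figure D2:**
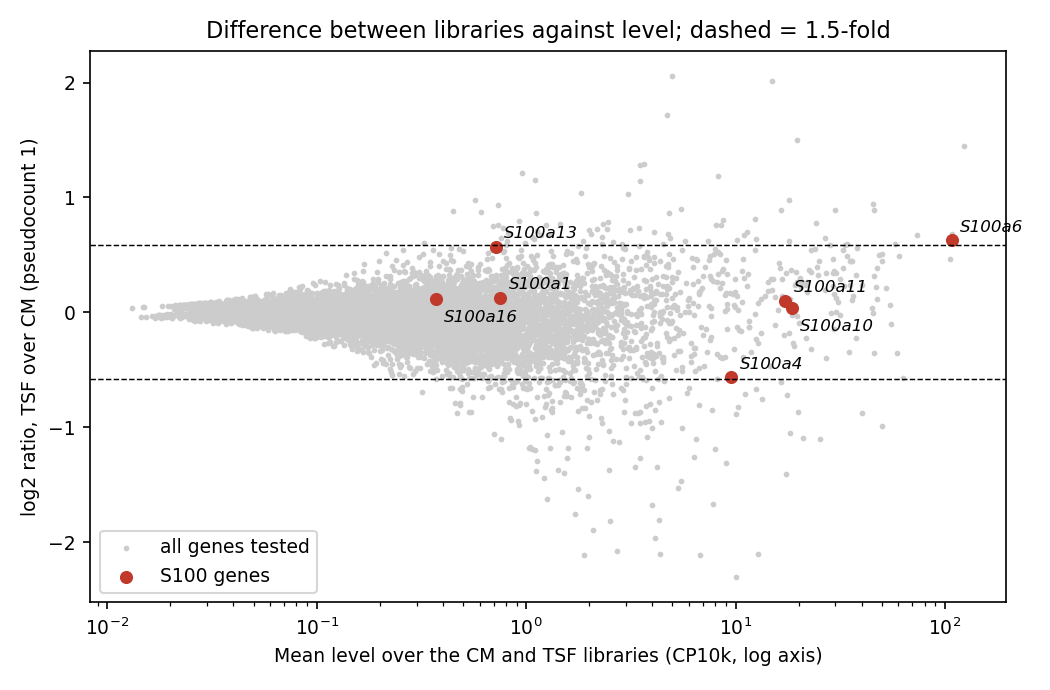
Log2 ratio of TSF over CM (mean CP10k plus 1) against the mean level over both libraries (CP10k, log axis) for 10201 genes in grey and 7 S100 genes in red, with dashed lines at 1.5-fold. S100a6 lies above the upper line at 0.63, S100a13 just under it at 0.57 and S100a4 just inside the lower line at -0.57.

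S100a6, or calcyclin, is a calcium sensor whose best known partner is Cacybp, a protein of a ubiquitin ligase complex. Its level was 84.8 CP10k in the CM library and 131 CP10k in the TSF library, a log2 ratio of 0.63 (1.54-fold with 1 added). It ranked 63rd of 10201 genes by log2 ratio in the higher direction. In absolute level S100a6 was the 2nd highest of all genes of the table in CM and the 3rd highest in TSF. All 29 CM cells had an S100a6 UMI (95% exact interval 88.1 to 100%), as did 138 of the 139 TSF cells (99.3%, interval 96.1 to 100%). The share of cells with a UMI in a cell type without S100a6 was not analysed here. Within the 8 genes S100a6 held 63.9% of the summed level in CM and 73.8% in TSF. Its partner Cacybp went from 3.67 CP10k in CM to 2.33 CP10k in TSF, a log2 ratio of -0.49 that stayed inside the limit.

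S100a4, or metastasin, binds the heavy chain of non-muscle myosin IIA (Myh9) and acts on filament assembly and cell motility. Its level was 11.6 CP10k in CM and 7.51 CP10k in TSF. The TSF library was the lower, by 1.48-fold with 1 added (log2 ratio -0.57), just short of the limit. S100a4 had a UMI in 28 of 29 CM cells (96.6%, interval 82.2 to 99.9%) and in 127 of 139 TSF cells (91.4%, interval 85.4 to 95.5%), and these intervals overlap. S100a6 lies next to S100a4 on the chromosome but for S100a5, and the pair went in opposite directions: the level of S100a6 was 7.31 times that of S100a4 in CM and 17.5 times in TSF. Myh9 was at 4.45 CP10k in CM and 3.00 CP10k in TSF, a log2 ratio of -0.45. In the annotation 302 of the 584 exon bases of S100a4 (51.7%) also belong to Gm42674, a gene model on the same strand that has no row in the gene table, so the S100a4 count is uncertain to that extent.

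S100a10, the light chain of the annexin A2 tetramer that binds plasminogen at the cell surface, was at 18.3 CP10k in CM and 18.8 CP10k in TSF. The log2 ratio was 0.04, and 28 of 29 and 138 of 139 cells had a UMI. Its partner Anxa2 was at 12.9 CP10k in CM and 15.7 CP10k in TSF (log2 ratio 0.27), so the S100a10 level was 1.42 times that of Anxa2 in CM and 1.20 times in TSF.

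S100a11, a partner of annexin A1, was at 16.6 CP10k in CM and 17.9 CP10k in TSF, a log2 ratio of 0.10. It had a UMI in 29 of 29 and 137 of 139 cells. Anxa1 was at 7.08 CP10k in CM and 5.53 CP10k in TSF (log2 ratio -0.31), and the S100a11 level was 2.35 times that of Anxa1 in CM and 3.24 times in TSF. S100a10 and S100a11, neighbours on the chromosome, kept nearly the same ratio of levels, 1.10 in CM and 1.05 in TSF. Of the 31-base stretches of S100a11 transcripts 48.9% also occur in transcripts of other genes, among them the pseudogene S100a11-ps, so reads could have been split between copies. No 31-base stretch was shared between any pair of the 8 members.

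S100a13 takes part in the export of Fgf1 and Il1a, proteins that leave the cell without a signal peptide. Its level was 0.381 CP10k in CM and 1.05 CP10k in TSF. A UMI was found in 13 of 29 CM cells (44.8%, interval 26.4 to 64.3%) and in 120 of 139 TSF cells (86.3%, interval 79.5 to 91.6%). The TSF library was thus the higher on both measures. By the difference in share of cells, 41.5 percentage points, S100a13 ranked 6th of 10201 genes. Its log2 ratio was 0.57 with 1 added (1.49-fold, just short of the limit) and 1.26 with 0.1 added, while the ratio of the bare levels was 2.76. Among cells with a UMI the mean level was 0.849 CP10k in CM and 1.22 CP10k in TSF.

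Depth moved with the comparison among the shallower cells. The median was 27679 UMIs per cancer cell in CM and 26615 in TSF, but the lower quartile was 9821 in CM and 20099 in TSF, and 8 of 29 CM cells (27.6%) and 14 of 139 TSF cells (10.1%) had under 10000 UMIs. The part of depth in the shares of cells with a UMI was not tested. The partners of S100a13 were scarce: Fgf1 had a UMI in 3 CM and 8 TSF cells, and Il1a in 0 CM and 4 TSF cells.

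**Figure D3:**
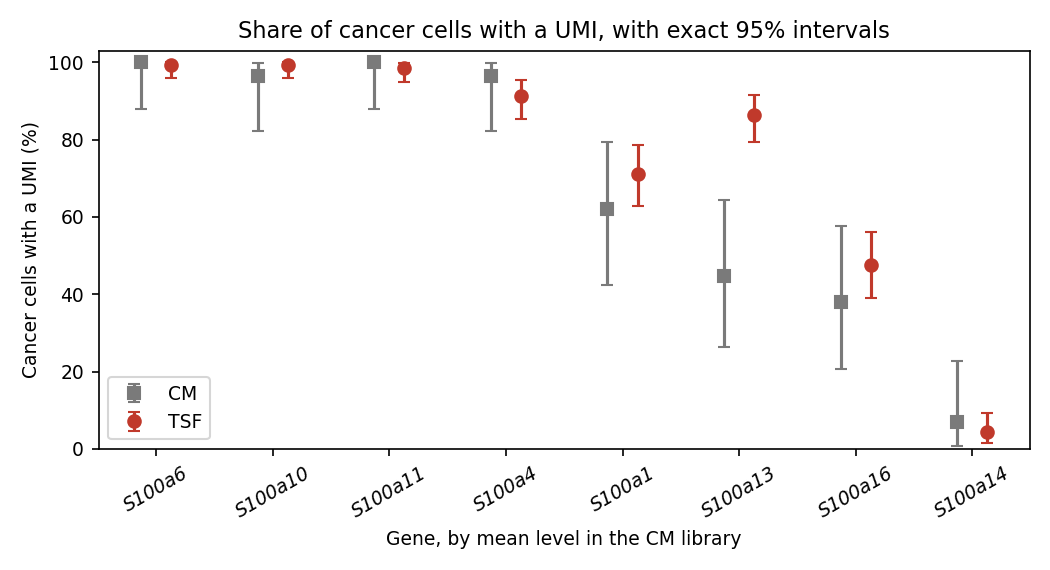
Share of cancer cells with a UMI of each S100 gene, in percent with exact 95% intervals (counting error only), for 29 CM cells (grey squares) and 139 TSF cells (red circles), in the order of the CM level. The widest gap in share is that of S100a13, at 44.8% in CM and 86.3% in TSF.

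S100a1, known from heart and skeletal muscle where it acts on calcium release channels, starts head to head with S100a13. Its level was 0.677 CP10k in CM and 0.832 CP10k in TSF (log2 ratio 0.13). It had a UMI in 18 of 29 CM cells (62.1%, interval 42.3 to 79.3%) and in 99 of 139 TSF cells (71.2%, interval 62.9 to 78.6%). These intervals overlap. The order of the pair turned, with S100a13 at 0.562 times the S100a1 level in CM and at 1.26 times in TSF.

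S100a16, a widely expressed member, was at 0.318 CP10k in CM and 0.425 CP10k in TSF, a log2 ratio of 0.11. It had a UMI in 11 of 29 CM cells (37.9%, interval 20.7 to 57.7%) and in 66 of 139 TSF cells (47.5%, interval 39.0 to 56.1%). S100a14, typical of stratified and glandular epithelia, had a UMI in 2 CM cells (6.90%) and 6 TSF cells (4.32%), with levels of 0.0171 and 0.0180 CP10k. For S100a16 and S100a14 the intervals of the shares, which cover counting error only, overlap.

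The remaining S100 genes were found in few of these cells, and in level they overlapped only the low members. S100g and S100z had no UMI in any cancer cell, which by the limit of 3 counts allows a share of cells with a UMI of up to 10.3% in CM and 2.16% in TSF, for counting error only. S100b had a UMI in 1 CM cell and no TSF cell, S100a5 in no CM cell and 1 TSF cell, S100a3 in 3 CM and 7 TSF cells, and S100a7a in 3 CM and 5 TSF cells. S100a8 and S100a9, the calprotectin pair of neutrophils, were at 0 in the CM cells and at 0.300 and 0.685 CP10k in the TSF library, from 2 and 4 cells. S100pbp, which encodes a protein that binds S100p and is no S100 gene itself, was at 0.236 CP10k in CM and 0.0914 CP10k in TSF (log2 ratio -0.18). S100a7l2 had no row among the genes analysed here. S100a2, which lies in the cluster and was added after its values were seen, had a UMI in 1 CM cell and no TSF cell. Of the 9 listed genes with a row 3 passed the filter (S100a3, S100a7a and S100pbp), and none of these 3 was past the limit, beside 2.71% of all genes. S100a3 and S100a7a passed only through 3 CM cells each, at levels where the added 1 holds the ratio near 1. Their place inside the limit therefore carries no weight.

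Of the genes beside the S100a1 to S100a6 cluster, 4 passed the filter: Ilf2, Snapin, Chtop and S100a7a. Ilf2, Snapin and Chtop, which flank S100a1, had log2 ratios of -0.17, -0.11 and -0.05, beside 0.13 for S100a1 and 0.11 for S100a16. S100a7a passed only through 3 CM cells, at 0.0412 CP10k in CM and 0.0118 CP10k in TSF, where the added 1 holds the ratio near 1. None of the 4 flanking genes was past the limit, beside 2.71% of all genes. Within the cluster the ratios ran from -0.57 (S100a4) to 0.63 (S100a6), so its members did not share 1 direction.

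**Figure D4:**
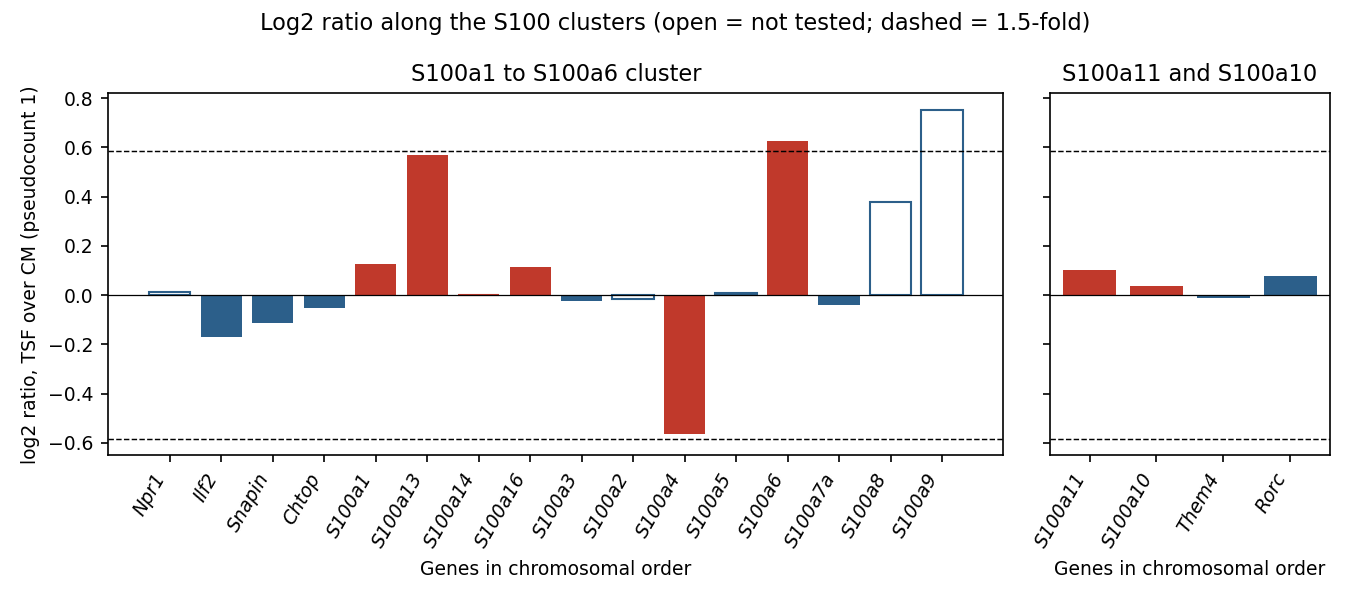
Log2 ratio of TSF over CM (mean CP10k plus 1) for genes in chromosomal order in the S100a1 to S100a6 cluster (left) and around S100a11 and S100a10 (right), with S100 members in red, other genes in blue, genes below the filter as open bars and dashed lines at 1.5-fold. Genes at 0 in both libraries are left out. S100a13 and S100a6 stand highest and S100a4 lowest among the members, and S100a8 and S100a9 (open bars) rest on 2 and 4 TSF cells.

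Of the partners and receptors of S100 proteins, 29 genes were listed and 24 passed the filter. Past the limit were 0 in the higher direction and 2 in the lower one, beside 0.755% and 1.95% of all genes. With 0.1 added in place of 1 these counts were 2 and 7, beside 7.33% and 17.3% of all genes. The 2 genes past the limit with 1 added belong to the plasminogen activation system: Plau (urokinase) was at 1.77 CP10k in CM and 0.668 CP10k in TSF (log2 ratio -0.73), and its receptor Plaur at 3.00 CP10k and 1.35 CP10k (log2 ratio -0.77). The most abundant of the list were Anxa2, Anxa5 (12.4 and 12.3 CP10k in CM and TSF, log2 ratio -0.01) and Ahnak, a large scaffold protein bound by the S100a10 tetramer (9.31 and 7.04 CP10k, log2 ratio -0.36). Ager, the receptor for advanced glycation end products, had a UMI in 0 CM cells and 1 TSF cell. The median log2 ratio was -0.06 over the 24 genes, beside -0.03 over all genes tested.

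Other EF-hand genes share the calcium-binding fold. Of the 33 genes listed 29 passed the filter, with a median log2 ratio of -0.07. They ranged from -0.44 (Capn1, a calpain protease) to 0.39 (Sdf4, a Golgi calcium-binding protein). None was past the limit, beside 2.71% of all genes. With 0.1 added 2 were past it in the higher direction and 3 in the lower one, beside 7.33% and 17.3% of all genes. Among the most abundant were Myl6, a myosin light chain, at 15.9 CP10k in CM and 16.1 CP10k in TSF, and Myl12a, a myosin regulatory light chain, at 7.78 and 7.57 CP10k.

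**Figure D5:**
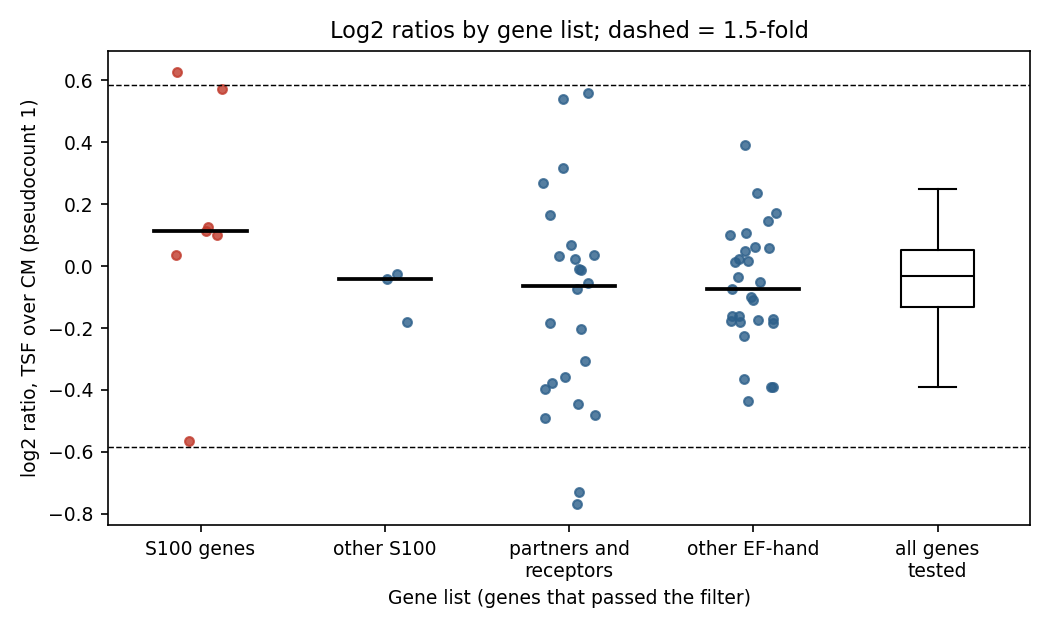
Log2 ratio of TSF over CM (mean CP10k plus 1) by gene list, 1 point per gene that passed the filter, with black bars at the medians, a box for the quartiles of all 10201 genes tested (whiskers at their 5th and 95th percentiles) and dashed lines at 1.5-fold. The S100 members spread from -0.57 to 0.63 around a median of 0.11, and the partner and EF-hand lists lie around medians of -0.06 and -0.07.

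The keratins Krt18 and Krt8 were abundant in both libraries: Krt18 was at 18.3 CP10k in CM and 15.8 CP10k in TSF, and Krt8 at 10.3 and 11.1 CP10k. The other keratins of the carcinoma list were lower, with Krt7 at 1.45 and 1.76 CP10k, Krt19 at 0.386 and 0.563 CP10k and Krt14 at 0 and 0.116 CP10k. The summed carcinoma list was 31.01 CP10k in CM and 32.0 CP10k in TSF, and Krt14 and Cldn3 of its 11 genes were at 0 in CM. Other carcinoma markers, named after their values were seen, moved with the comparison. Epcam was at 0.195 CP10k in CM and 1.28 CP10k in TSF (log2 ratio 0.93), and CD90.1 had a UMI in 2 CM cells and 48 TSF cells. The neutrophil list summed to 0.243 CP10k in CM and 1.57 CP10k in TSF, with 9 of its 10 genes at 0 in CM and 3 (Ly6g, Ngp and Camp) at 0 in both. It was led by S100a9 and by Mmp9 (0.243 and 0.400 CP10k). The list of other leukocytes summed to 21.5 CP10k in CM and 4.42 CP10k in TSF, nearly all of it Cd74, the invariant chain of MHC class II (21.5 and 4.23 CP10k). The next of that list, Fcer1g, had a UMI in 0 CM and 6 TSF cells, 8 of the 10 genes were at 0 in CM, and Lyz2 was at 0 in both. The fibroblast list, led by Pdgfra and Dcn, summed to 0.498 CP10k in CM and 1.07 CP10k in TSF, the endothelial list, led by Pecam1 and Cldn5, to 0.0588 and 0.2497 CP10k, and the alveolar or airway list, led by Sftpa1 and Scgb1a1, to 0.476 and 0.0658 CP10k with Sftpc and Sftpb at 0 in both. The part of these transcripts in the S100 differences was not tested.

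The make-up of the cancer cells also moved with the comparison. In the authors' fine clustering, which divides the cancer cells of day 16 into clusters 120 and 131, cluster 120 held 6 of 29 CM cells (20.7%, interval 7.99 to 39.7%) and 85 of 139 TSF cells (61.2%, interval 52.5 to 69.3%). S100 levels per cluster were not analysed here, so the part of this shift in the differences of S100a6, S100a13 and S100a4 was not tested. Ribosomal protein genes took 19.3% of CP10k in CM and 24.7% in TSF, a shift of 0.10 in the log2 ratio of bare CP10k of all other genes, while ratios with 1 added moved by other amounts. The libraries shared 31 cell barcodes and none among the cancer cells.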

How the data were processed

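Single-cell RNA sequencing libraries (10x Genomics 5′ v1.1) were analysed from the authors' deposited tables. Following the study's methods, the authors mapped reads with Cell Ranger to mm10 (GRCm38.p6) to which the reporter CD90.1 had been added, removed ambient RNA from the UMI counts (SoupX, customised), filtered cells on UMIs, genes and mitochondrial share, and clustered them in Monocle3. Seurat 4.1.0 served to read the counts and for the authors' differential expression. The deposited gene table gives, for the cancer cells of each day 16 library, the mean CP10k, the number of cells with a UMI, and the percent of cells with a UMI. The deposited cell table gives UMI counts per cell and the authors' cell classes and clusters. The cell table also held 2 libraries that were not described and were not used. The columns with the authors' fold changes, p-values and rankings, and their enrichment table, were not used. Doublets were called by the authors and the cells used here are those they classed as cancer cells. No matrix of single cells was analysed here, so shares were not thinned to equal depth, and the share of S100 UMIs in another cell type was not analysed here.

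Log2 ratios of mean CP10k plus 1 were computed over all genes detected in 10% or more of the cancer cells of CM, of TSF or of both, and a limit of 1.5-fold was used to describe them. Intervals of shares are exact (Clopper-Pearson, 95%), and for a count of 0 the limit is 3 cells of the total. Both cover counting error only. The calculation was tested on simulated data. Coordinates and shared sequence came from GENCODE M21 and promoter windows (250 bases before to 50 after the start) from RefSeq. Alternatives were a pseudocount of 0.1 or none, a limit of 2-fold, other filters on cells, CP10k without ribosomal protein genes, and centring on the median of all genes. The 8 genes and all gene lists were chosen with earlier results of these data known. The text names the 8 members, the other S100 genes, the listed partners and EF-hand genes that were past the limit or among the 3 highest of their list, textbook partners of the members, and the 2 highest markers of each list. The values of 1 gene that this rule names are not reported here. Scripts ran in Python 3.11.15 (scipy 1.17.1, pandas 2.3.3, numpy 2.4.6), with figures from matplotlib 3.10.9.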

Additional observations from a re-analysis of the deposited data

How the results depend on the processing

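Neither the members' median log2 ratio nor that of any single member changed sign under the alternatives run on them, while the median of all genes, -0.03, was 0.0011 with a UMI in any cell. Of the 7 members tested, 3 were past the limit with a pseudocount of 0.1 and 3 with none. After rescaling without ribosomal protein genes 2 were past it, after centring 2, and at a limit of 2-fold 0. In the same order, 24.6%, 45.3%, 3.55%, 2.55% and 0.657% of all genes were past it. The added calls were S100a13 and S100a4. S100a13 had log2 ratios of 1.26, 1.47, 0.70 and 0.60 under the first 4 of these settings. S100a4 was at -0.62 and -0.63 under the first pair. The median log2 ratio of the members was 0.26, 0.30 and 0.19 with a pseudocount of 0.1, with none and after rescaling. Over all genes, 276 of 10201 were past the limit (2.71%). Against this stood 2510 of 10201 with a pseudocount of 0.1, 4589 of 10121 with none and 67 of 10201 at 2-fold. Of the list of other S100 genes, 1 of 3 (S100pbp, lower) was past it with a pseudocount of 0.1. With none 3 of 3 were past it (lower), beside 45.3% of all genes. Of these, S100a3 and S100a7a passed the filter only through 3 CM cells each, so their calls carry no weight. With a UMI in any cell 1 of 7 was past it (S100a9, higher, from 4 TSF cells), beside 1.9% of all genes. Of 29 EF-hand genes 5 were past it with a pseudocount of 0.1 (24.6% of all genes) and 8 with none (45.3%). Of the partners 9, 11, 0 and 4 were past it with a pseudocount of 0.1, with none, at 2-fold and after rescaling, of which 2, 4, 0 and 2 were higher in TSF, and 1 of 3 was higher after centring. The shares of cells and the medians of the partner and EF-hand lists were not recomputed. A smaller pseudocount weighs low genes more by construction, and the cause of the other moves was not tested. With a UMI required in 50% of cells no other S100 gene was left. No paired analysis was possible because each group had 1 library and no test was made. The 29 CM cells limit the precision: a share of 44.8% had an interval from 26.4 to 64.3%, and the spread between mice is unknown since each library was 1 pool.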

Other observations

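In the set of S100 partners, the genes nearest below the limit in the higher direction were Anxa3, a membrane-binding annexin, and Sphk1, a sphingosine kinase known from the same Fgf1 export complex as S100a13. These were picked out after their values were seen. Anxa3 was at 2.17 CP10k in CM and 3.67 CP10k in TSF (log2 ratio 0.56), with a UMI in 26 of 29 and 134 of 139 cells. Sphk1 was at 0.375 CP10k in CM and 0.997 CP10k in TSF (log2 ratio 0.54). It had a UMI in 10 of 29 CM cells (34.5%, interval 17.9 to 54.3%) and 90 of 139 TSF cells (64.7%, interval 56.2 to 72.7%). Syt1, another protein of that complex, had no UMI in either library. Cd44, an adhesion receptor, was at 3.12 CP10k in CM and 1.95 CP10k in TSF (log2 ratio -0.48).

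At day 11 the share of cancer cells in the authors' fine cluster 120 was 4 of 6 in the CM library (interval 22.3 to 95.7%), 17 of 32 (53.1%, interval 34.7 to 70.9%) in TSF library a and 24 of 43 (55.8%, interval 39.9 to 70.9%) in TSF library b. S100 levels at day 11 were not analysed here.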
